A study of Mus musculus with 8 samples.

Results

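The Eph, ephrin, Slit, Robo, netrin, Unc5 and Dcc genes form the best known families of guidance cues and their receptors. They were taken by symbol from the annotation of the array, and 37 genes were found among the 18193 genes that had a probe set of their own. Of the 37, 9 were Epha and 4 Ephb receptors, 5 Efna and 3 Efnb ligands, 3 Slit, 4 Robo, 4 Ntn and 4 Unc5 genes, and Dcc. Each gene was read from its brightest probe set, out of 73 in all. Ephb2 was not analysed here. Testing required an intensity above 19.4, the 40th percentile of all values, on 2 or more of the 8 arrays. Epha6 lay at or below 8.86 on every array and was not tested, so 36 genes were tested.

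Ephs are receptor tyrosine kinases and ephrins are their membrane-bound ligands, so cells signal by touching. A-class ephrins are tethered by a lipid anchor and B-class ephrins span the membrane, and ligand and receptor can each signal back into their own cell. Slits are secreted proteins that repel cells through Robo receptors. Netrins are laminin-like secreted proteins that attract through Dcc and repel through Unc5 receptors. These systems steer axons, set the paths of migrating neural crest cells and shape vessels and the heart.

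Transcripts were measured on 8 Affymetrix arrays of total RNA from head and neck of mouse embryos, controls (wild type in the series title) and mutants of FAK, focal adhesion kinase, a tyrosine kinase of integrin adhesion sites. The stage in the series title is E11.5, a day of embryonic development that the labels of the LM, OFT and UM arrays do not repeat. There were 4 origins with 1 control and 1 mutant array each. The first was cranial neural crest cells, sorted for p75, the receptor encoded by Ngfr that crest cells carry, from dissected head and thorax of 3 pooled embryos of 1 genotype. The others are labelled LM, OFT and UM, names that the labels do not spell out and that are kept here. The number of embryos behind an LM, OFT or UM array, the FAK allele, any Cre driver, the strain and the sex of the embryos are not given in the sources used here, and Ptk2, which encodes FAK, was not analysed here. The 2 genotypes of an origin served as its replicates when origins were compared. Whether the arrays came from separate litters is not stated, so p-values measure only the spread between these arrays, which may be technical in part. The number of arrays limits the precision.

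Markers were set against the labels. Ngfr had 1043 and 1422 after p75 sorting, while the other 6 arrays had 47.0 to 149. Sox10, a crest and glia factor, had 1512 and 1620 against 25.3 to 57.5. All 8 cardiomyocyte and all 4 smooth muscle markers were higher in OFT than in LM and UM by the test below. The p75-sorted pair stood apart by another measure as well. Signal at the 3' end of the Gapdh control divided by that at its 5' end was 2.82 and 4.91 there, and 0.70 to 0.986 for LM, OFT and UM. Over all 13545 genes tested, log2 values of a p75-sorted array correlated at 0.886 to 0.920 with those of other origins, a description across genes of whole arrays. The labels name sorting for this pair alone, so origin and sorting cannot be told apart for it.

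The sequences below show the stretch before the start of 4 genes that were higher in OFT and of 2 neighbouring genes, Robo3 and Robo4, whose levels ran differently. They are the 250 bases before the most upstream start given by RefSeq for GRCm38.p6, 5' to 3' on the gene's own strand, and 32 of the 37 genes had such an entry. Capitals mark GGGCGG, the core of the GC box, and CANNTG, the E-box, on either strand, with overlapping matches counted separately.
Unc5b, chr10:60831582-60831831, minus strand: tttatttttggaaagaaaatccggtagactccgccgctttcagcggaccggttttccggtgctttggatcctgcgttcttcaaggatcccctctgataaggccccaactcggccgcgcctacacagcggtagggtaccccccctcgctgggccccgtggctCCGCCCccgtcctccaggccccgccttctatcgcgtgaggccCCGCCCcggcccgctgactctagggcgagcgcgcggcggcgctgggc
Unc5c, chr3:141465314-141465563, plus strand: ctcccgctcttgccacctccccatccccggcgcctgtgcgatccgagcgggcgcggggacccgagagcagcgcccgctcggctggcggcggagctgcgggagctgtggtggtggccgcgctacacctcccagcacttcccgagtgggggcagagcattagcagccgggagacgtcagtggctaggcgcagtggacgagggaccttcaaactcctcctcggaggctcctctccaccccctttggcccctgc
Slit2, chr5:47982905-47983154, plus strand: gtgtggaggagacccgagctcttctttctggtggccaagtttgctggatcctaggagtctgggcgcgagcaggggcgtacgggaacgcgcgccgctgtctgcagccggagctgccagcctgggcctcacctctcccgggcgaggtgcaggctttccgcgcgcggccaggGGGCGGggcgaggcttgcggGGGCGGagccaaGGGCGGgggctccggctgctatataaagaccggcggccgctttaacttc
Slit3, chr11:35121206-35121455, plus strand: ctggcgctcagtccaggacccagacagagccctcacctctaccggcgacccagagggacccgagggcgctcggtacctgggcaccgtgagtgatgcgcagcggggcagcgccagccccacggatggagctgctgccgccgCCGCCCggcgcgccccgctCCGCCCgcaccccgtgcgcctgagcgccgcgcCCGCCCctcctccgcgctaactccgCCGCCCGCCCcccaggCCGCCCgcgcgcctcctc
Robo3, chr9:37433176-37433425, minus strand: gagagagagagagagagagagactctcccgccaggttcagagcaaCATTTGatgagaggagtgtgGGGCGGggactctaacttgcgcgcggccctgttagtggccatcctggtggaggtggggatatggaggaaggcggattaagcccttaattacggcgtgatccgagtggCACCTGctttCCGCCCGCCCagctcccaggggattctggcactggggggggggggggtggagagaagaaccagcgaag
Robo4, chr9:37401722-37401971, plus strand: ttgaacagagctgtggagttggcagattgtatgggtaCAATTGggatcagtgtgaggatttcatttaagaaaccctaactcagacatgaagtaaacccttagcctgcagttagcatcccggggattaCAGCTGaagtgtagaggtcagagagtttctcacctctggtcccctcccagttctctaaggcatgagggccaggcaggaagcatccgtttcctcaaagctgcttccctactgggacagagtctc
The Unc5b stretch held 2 GC boxes, Slit2 held 3 and Slit3 held 6, and Unc5c held 0. None of these 4 held an E-box. Robo3 held 3 GC boxes and 2 E-boxes, and Robo4 held 0 GC boxes and 2 E-boxes. Over the 32 genes, 71.9% held a GC box and 43.8% an E-box, against 33% and 66.1% of the stretches of 27025 genes in the same table. Those 27025 genes were not limited to genes on the array or tested here, so the 2 sets are unlike. The 32 genes had a median of 16 CG dinucleotides in the 250 bases, and all genes a median of 6. Robo4, with 2, and Ntn5, also with 2, were the lowest of the family, and Epha8, with 46, was the highest. A match of letters describes these windows and no more.

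**Figure D1:**
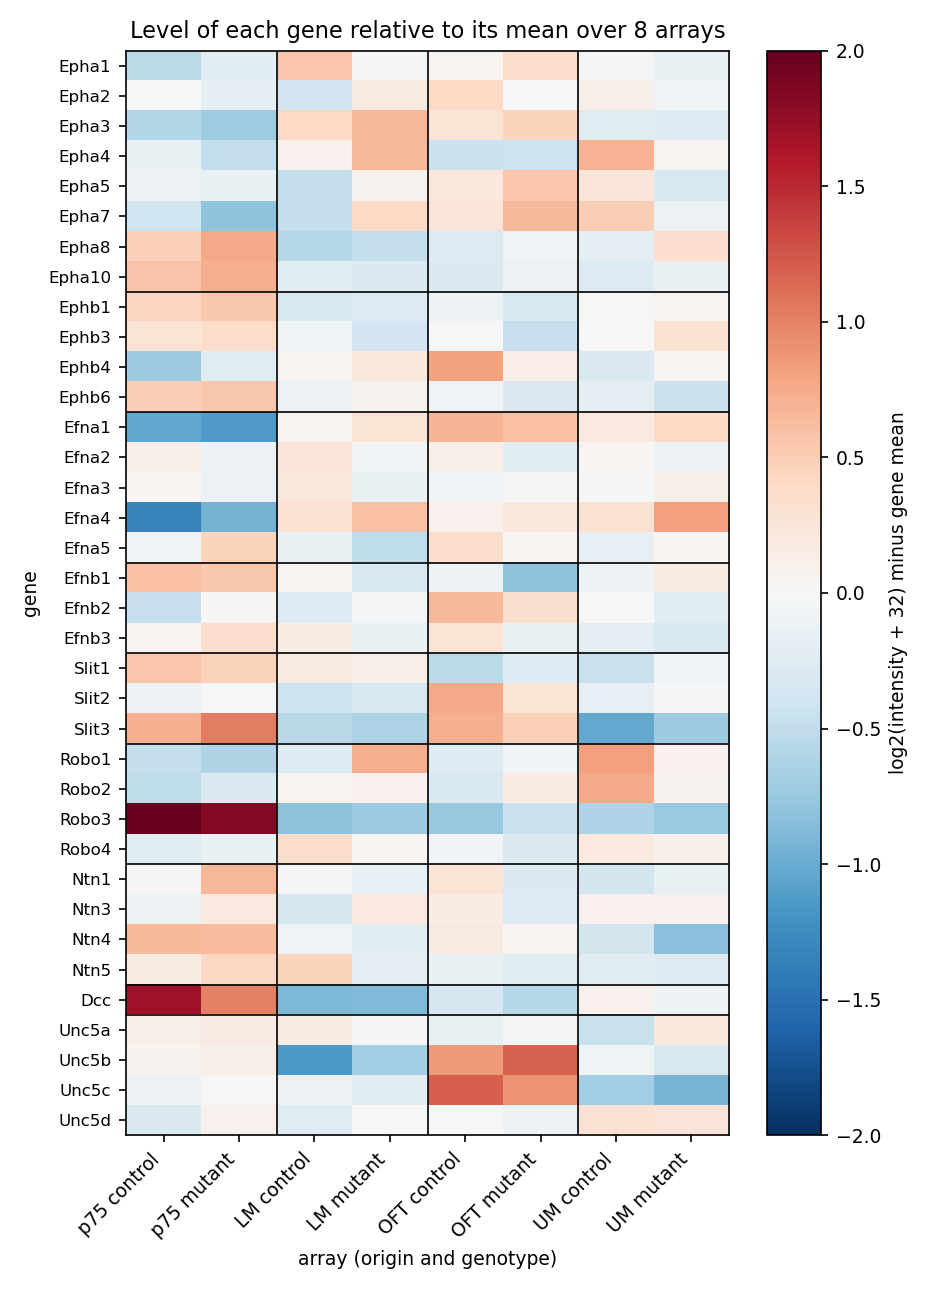
Level of each of the 36 tested genes on each of the 8 arrays, as log2(intensity + 32) minus the gene's mean over the arrays; rows are genes grouped by family and columns are arrays. Robo3 and Dcc are high on both p75-sorted arrays, Efna1 and Efna4 are low there, and Unc5b, Unc5c and Slit2 are highest on the OFT arrays.

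Comparing OFT with LM and UM together asked which guidance genes set the OFT origin apart. Both a Slit pair and an Unc5 pair were higher in OFT. Levels are given as intensities and differences on the scale of log2(intensity + 32), so a probe set at 0 has the value 5 and differences of dim genes are understated. Differences come from limma with a term for origin and 1 for genotype, p-values are adjusted by Benjamini-Hochberg over all 13545 genes, and ± gives the moderated SE, with 2 arrays an origin. In bulk RNA a lower level from fewer cells of a type and one from less RNA per cell cannot be told apart. Of the 36 genes, 6 were called, against 15.2% of all genes tested. Higher in OFT were 5 (13.9%, against 11.3% of all genes) and lower was 1 (2.78%, against 3.88%). The share of the family was thus near that of all genes. The median difference was 0.03 over the 36 genes and 0.01 over all genes. Both OFT arrays lay above all 6 other arrays for 5 of the 36 genes, Efna1, Efnb2, Slit2, Unc5b and Unc5c, or 13.9% against 10.1% of all genes.

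Unc5b, a netrin receptor of endothelium and other cells, had intensities of 349 and 445 in OFT (control, then mutant, as throughout), 63.5 and 99.7 in LM, 168 and 140 in UM, and 189 and 196 in p75-sorted cells. The OFT arrays were above every other array. The difference to LM and UM was 1.56 ± 0.17, with adjusted p = 5.6e-05 by limma, and mean intensity was 3.37-fold higher. Unc5c, a netrin receptor best known from migrating neurons, had 697 and 561 in OFT, 261 and 241 in LM, 164 and 135 in UM, and 262 and 287 in p75-sorted cells. Here too OFT was above all other arrays, by 1.54 ± 0.16 over LM and UM, with adjusted p = 2.8e-05 by limma. The second probe set of each gene went the same way, at 0.84 for Unc5b and 1.11 for Unc5c. The other 2 genes of the family, Unc5a and Unc5d, stayed between 2.18 and 34.5 on all arrays and were not called.

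Slit3, a secreted Robo ligand, had intensities of 157 and 129 in OFT, 46.7 and 43.1 in LM and 24.6 and 37.6 in UM. It was about as bright in p75-sorted cells, at 157 and 202. Its difference was 1.33 ± 0.17, with adjusted p = 0.00017 by limma, and it rests on 1 probe set. Slit2 had 826 and 581 in OFT, 347 and 372 in LM, 420 and 457 in UM, and 434 and 476 in p75-sorted cells. OFT lay above all other arrays and the difference was 0.76 ± 0.17, with adjusted p = 0.0105 by limma. Without the OFT control array it was 0.46, with adjusted p = 0.376. Its other 2 probe sets differed by 0.70 and 0.16. Slit1, at 2.17 and 9.13 in OFT and 4.19 to 24.0 in LM and UM, was not called. Among their receptors, Robo1, Robo2 and Robo4 had differences of -0.49 ± 0.26, -0.32 ± 0.21 and -0.34 ± 0.16, and none passed.

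Efnb2, a B-class ephrin that marks arteries, had 1792 and 1409 in OFT, 935 and 1098 in LM, 1120 and 959 in UM, and 808 and 1144 in p75-sorted cells. It was 0.62 ± 0.19 higher in OFT, with adjusted p = 0.044 by limma, and OFT lay above all other arrays. Without the OFT control array the difference was 0.37, with adjusted p = 0.609 by limma. Its 4 probe sets did not run together, with differences from -0.56 to 0.62. Ephb4, the venous receptor of ephrin-B2, had 346 in the OFT control but 205 in the OFT mutant, and 145 to 219 in LM and UM. Its difference of 0.46 ± 0.22 was not called, and the groups overlapped. Epha4, a receptor that binds ephrins of both classes, was the 1 gene that fell. It had 304 and 307 in OFT, 448 and 688 in LM, and 701 and 440 in UM, with a difference of -0.80 ± 0.22 and adjusted p = 0.026 by limma. All 5 of its probe sets were lower in OFT, by differences from -0.93 to -0.29. No other Eph receptor passed in this comparison.

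Markers of several cell types differed along with these genes. Of 10 endothelium markers 6 were higher in OFT and 0 lower, with a summed intensity of 2275 and 1849 in OFT and 1149 to 1329 in LM and UM. Neuron markers were higher for 7 of 10, with sums of 5527 and 3603 in OFT and 673 to 2076 in LM and UM. Facial mesenchyme markers were lower for 4 of 7. Robo4, itself a gene of endothelium, had 37.1 and 26.8 in OFT against 41.7 to 60.6 in LM and UM. The part of these cell types in the guidance genes was not tested. Without the OFT control array 3 genes were called in place of 6, namely Unc5b, Unc5c and Slit3. These 3 passed under every one of the 18 alternatives run.

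**Figure D2:**
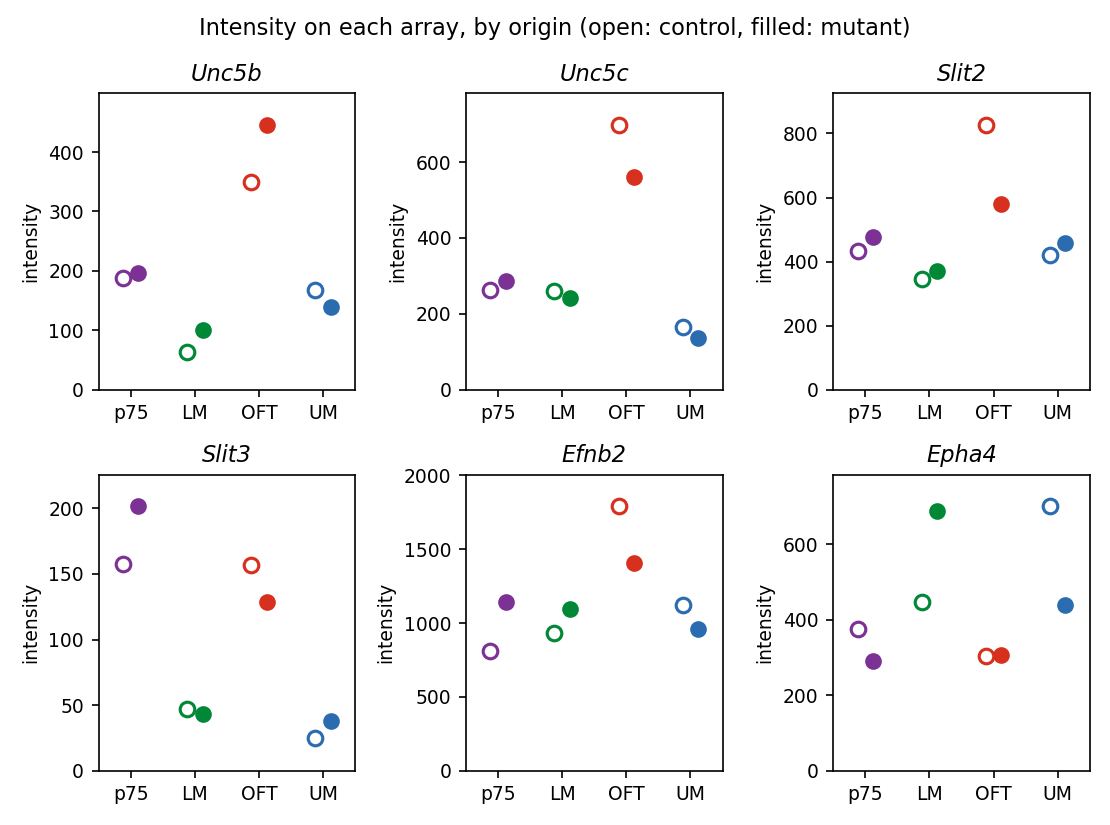
Intensity (linear scale from 0) of the 6 genes called between OFT and LM with UM, on every array; columns are origins, open circles are controls and filled circles mutants. Unc5b, Unc5c, Slit2 and Efnb2 are highest on both OFT arrays, Slit3 is shared by OFT and p75-sorted cells, and Epha4 is low in OFT.

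LM against UM asked how these origins differ from each other. Only Dcc, the netrin receptor of attraction, passed, being lower in LM; that is 2.78% of the 36 genes, against 1.56% of all genes called, 0.819% lower and 0.738% higher. Dcc had 22.0 and 22.7 in LM and 75.5 and 61.7 in UM. The LM arrays were the dimmest of all for this gene, near the cutoff of 19.4. The difference was -0.89 ± 0.20, with adjusted p = 0.0495 by limma. The call was lost in 14 of 18 alternatives, with adjusted p up to 0.446, and a second Dcc probe set differed by -0.79. The remaining, dim one differed by 0.19. Neuron markers were lower in LM for 3 of 10, with sums of 673 and 1218 in LM and 2076 and 1147 in UM, which overlap. Neural progenitor markers were lower for 2 of the 4 tested, with sums of 304 and 282 in LM and 960 and 858 in UM, and epithelium markers for 3 of 8. The part of these cell types in the Dcc difference was not tested.

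Epha3, an ephrin-A receptor also of the heart cushions, came next. It had 1060 and 1275 in LM and 668 and 659 in UM, without overlap. The difference of 0.78 ± 0.18 had adjusted p = 0.058 by limma and so missed the threshold, although the other 3 probe sets gave 0.68 to 0.80. Unc5b and Unc5c differed in opposite directions, by -0.72 ± 0.20 and 0.64 ± 0.18, with adjusted p = 0.14 and 0.15 by limma. For Unc5b the 95% interval ran from -1.16 to -0.29 and for Unc5c from 0.25 to 1.04, so neither shows that LM and UM are alike. The median difference over the 36 genes was -0.07, and over all genes -0.00.

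Comparing p75-sorted cells with LM and UM together asked which guidance genes are high or low in sorted crest. Here 19 genes were called (52.8%), against 48.1% of all genes tested. Of these 12 were higher (33.3%, against 29.4%) and 7 lower (19.4%, against 18.7%), shares near those of all genes. Robo3 and Epha10 passed the filter on dim genes only through the 2 p75-sorted arrays and could therefore hardly fail to differ. Epha8 was above the cutoff on these 2 arrays and the UM mutant array alone, so it too needed them to pass. The count fell from 19 to 10 without the p75-sorted mutant array. It was 12 when the called genes were limited to those whose probe sets all had the same sign. Against OFT, with the same p75-sorted arrays, 18 genes were called (50%, against 34.6% of all genes), 9 higher and 9 lower, against 19.2% and 15.4%. The 9 higher also include Robo3, Epha10 and Epha8, which needed the p75-sorted arrays to pass the filter. Both p75-sorted arrays lay above all others for 10 of the 36 genes and below all others for 5, or 27.8% and 13.9%, against 28% and 18.6% of all genes. Robo3, Epha10 and Epha8 are among these 10 as well. The 18 calls against OFT became 10 without the p75-sorted mutant and 11 without the OFT mutant array.

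Dcc and Robo3 had the largest positive differences. Of the 4 Robo genes 1 was higher and 2 lower, or 25% and 50%, against 29.4% and 18.7% of all genes. Robo3, a divergent Robo that commissural neurons need to cross the midline, had 239 and 171 in p75-sorted cells and between 0.538 and 10.4 on the other 6 arrays. Its difference to LM and UM was 2.76, given as a description because these arrays also carried it through the filter. A second Robo3 probe set, above the cutoff on 5 arrays, differed by -0.09. Dcc had 294 and 170 in p75-sorted cells against 22.0 to 75.5 elsewhere, with differences of 1.80 ± 0.17 to LM and UM and 1.80 ± 0.20 to OFT (adjusted p = 8.7e-06 and 4.9e-05 by limma). The second Dcc probe set gave 1.97 and 1.76, and the remaining one, above the cutoff on 2 arrays, gave -0.14 and -0.00. By their brightest probe sets both receptors were clear of all other arrays.

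Neuron markers were high on the same arrays. All 10 were higher than in LM and UM, with sums of 8227 and 4872. In OFT the sums were 5527 and 3603, where Robo3 had 1.76 and 10.4 and Dcc 47.8 and 36.1. Against OFT 5 of the 10 neuron markers were higher and 1 lower. Within the p75-sorted pair Robo3, Dcc and the neuron sum were each lower in the mutant. The part of neurons in these levels was not tested.

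Of the 7 Slit and Ntn genes 3 were higher, Slit1, Slit3 and Ntn4, and 4 were not called. Among all genes 29.4% were higher in this comparison. Slit3, already named for OFT, differed by 1.60 ± 0.17 from LM and UM (adjusted p = 1.7e-05 by limma) and by 0.27 ± 0.19 from OFT, which was not called and has a 95% interval from -0.15 to 0.69. Ntn4, a netrin of basement membranes, had 100.2 and 97.0 in p75-sorted cells, 48.4 and 41.0 in LM, 63.6 and 54.8 in OFT and 33.6 and 15.3 in UM. It differed by 0.999 ± 0.157 from LM and UM, with adjusted p = 0.00029 by limma, and its difference of 0.52 ± 0.18 from OFT passed with adjusted p = 0.043 but was lost in 7 of 17 alternatives. Slit1 had 40.5 and 35.6 against 2.17 to 24.0 elsewhere, with 0.56 ± 0.16 to LM and UM. Ntn1, the netrin of the floor plate, had 98 and 170 in p75-sorted cells, 98.7 and 82.6 in LM, 123 and 72.8 in OFT and 67.0 and 84.2 in UM, and was not called, and Ntn3 and Ntn5 stayed at or below 22.3 on every array.

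Of the 12 Eph receptors tested 4 were higher and 3 lower (33.3% and 25%, against 29.4% and 18.7% of all genes). The 4 include Epha10 and Epha8, which would not have passed the filter without these arrays. Epha8 had 40.1 and 55.8 against 3.10 to 33.2 elsewhere, and Epha10 had 29.5 and 36.5 against 1.75 to 6.26. Ephb1 had 110 and 122 against 52.7 to 77.6, and Ephb6 51.4 and 54.6 against 11.9 to 30.2. All 4 were above every other array, and Epha10 and Ephb6 belong to the Eph receptors without kinase activity. The differences of Ephb6 and Ephb1 to LM and UM were 0.69 and 0.62, with adjusted p = 0.0038 and 0.0051 by limma. Those of Epha10 and Epha8 were 0.87 and 0.84, as a description. Efnb1, an X-linked B-class ephrin, had 312 and 301 against 99.0 to 226, with 0.61 ± 0.20 and adjusted p = 0.022 by limma, and its 3 probe sets gave 0.20 to 1.48. The X-inactivation transcript Xist differed within this pair, from 21.0 in the control to 2247 in the mutant, and Efnb1 differed there by -0.05. Xist had 4368 to 5032 on the LM, OFT and UM arrays, so the pair differed from these origins in Xist too. The part of sex in the Efnb1 difference was not tested.

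Of the 5 A-class ephrins 2 were lower (40%, against 18.7% of all genes), Efna4 and Efna1, and 3 were not called. Efna4 had 59.9 and 89.1 in p75-sorted cells, against 251 and 317 in LM, 214 and 237 in OFT and 256 and 380 in UM. The difference to LM and UM was -1.64 ± 0.15 with adjusted p = 7.6e-06 by limma. By mean intensity the level was 4.04-fold lower. Efna1 had 25.7 and 21.9 against 89.8 to 157 elsewhere, with -1.31 ± 0.16 and adjusted p = 4.1e-05 by limma, and its second probe set gave -1.67. Both also fell against OFT, by 1.28 and 1.72 on the log2 scale. Efna1, Efna3 and Efna4 are neighbours in the genome, with Efna3 between the others. Efna3 did not share their pattern, with 50.9 and 42.5 in p75-sorted cells and 41.1 to 62.2 elsewhere, and a difference of -0.08 ± 0.16. Efna5 had 623 and 905 in p75-sorted cells, 598 and 454 in LM, 848 and 689 in OFT and 585 and 681 in UM, with overlap. Efna2 and Efna5 were not called, at -0.03 ± 0.15 and 0.37 ± 0.19. Epithelium markers, 8 of 8 lower, and endothelium markers, 7 of 10 lower and 0 higher, fell in the same comparison. The summed endothelium intensity was 456 and 458 in p75-sorted cells and 1149 to 1329 in LM and UM. Their part in the levels of Efna1 and Efna4 was not tested.

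The other lower genes were Epha3, Epha4, Epha7, Robo1 and Robo2. Epha3 had 520 and 474 against 659 to 1275 elsewhere, with -0.79 ± 0.16 (adjusted p = 0.0013 by limma), and all 4 of its probe sets were lower, by differences from -2.41 to -0.68. Robo1 and Robo2, which lie next to each other in the genome and encode the main Slit receptors, differed by -0.88 ± 0.26 and -0.64 ± 0.21. Robo1 had 531 and 486 in p75-sorted cells and 625 to 1348 elsewhere, without overlap. Its call held in 13 of 17 alternatives. Those that lost it included a pseudocount of 1 and the mean of its probe sets. Its difference was -0.58 without the LM mutant array, that of Robo2 was -0.41 without the UM control (adjusted p = 0.0757 by limma), and that of Epha7 went from -0.67 to -0.35, -0.40 and -0.45 without the p75-sorted mutant, LM mutant and UM control arrays, none of which passed. Robo2 had 41.1 and 53.4 in p75-sorted cells and overlapped with OFT, at 52.5 and 83.6. The genes called in no comparison of origins and not yet described follow by their range: Epha1 had 1.54 to 39.5, Epha2 22.0 to 61.1, Epha5 15.0 to 65.4 and Efnb3 163 to 271. These ranges are of the brightest probe set. The 3 Epha5 probe sets above the cutoff differed by -0.01 to 1.33 between p75-sorted cells and LM with UM. Ephb3 had 455 and 487 in p75-sorted cells, 345 and 277 in LM, 367 and 259 in OFT and 367 and 465 in UM, and was not called either. Robo4 and Robo3 are neighbours too, and Robo4 had 28.6 and 33.1 in p75-sorted cells, not called at -0.36 ± 0.16.

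**Figure D3:**
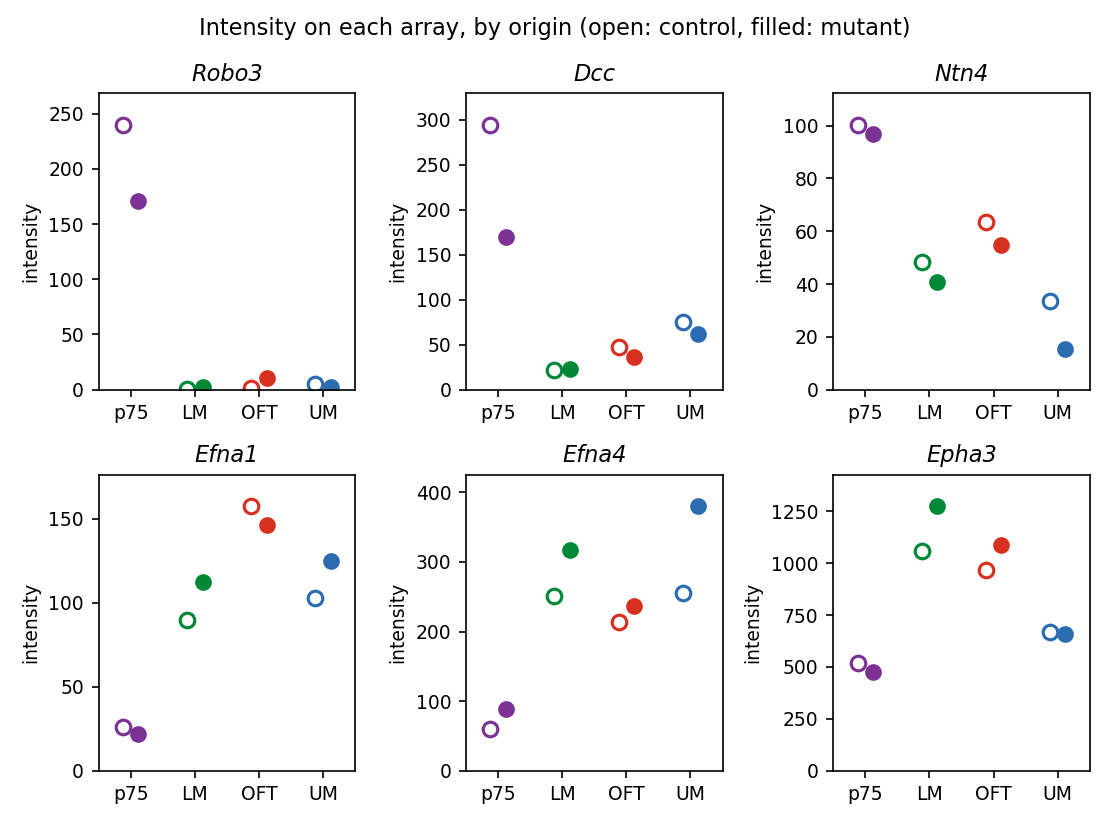
Intensity (linear scale from 0) of 6 genes called between p75-sorted cells and LM with UM, on every array; columns are origins, open circles are controls and filled circles mutants. Robo3, Dcc and Ntn4 are highest and Efna1, Efna4 and Epha3 lowest on both p75-sorted arrays.

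Several of these calls held for 1 probe set of a gene and not for another. Among the called genes 11 had other probe sets above the cutoff, 21 in all, and 11 of those 21 had the same sign as the one used. For all called genes the share was 66.9%. In OFT against LM and UM it was 9 of 11 for these genes, and 82% for all called genes. Epha4 ranged from -2.04 to 0.69 over 5 probe sets in p75-sorted cells against LM and UM, and Epha7 from -1.73 to 0.58 over 4. Unc5c was called higher at 0.44 ± 0.16 and its other probe set lay at -1.03; Unc5b lay at 0.64 ± 0.17 and -0.17, and Robo1 at -0.88, -0.01 and 0.26. Efnb2, not called at -0.09, had other probe sets down to -2.55. Robo3 and Dcc, described above, also had a dim probe set below 0. The directions for Epha4, Epha7, Unc5b, Unc5c, Robo1, Robo3 and Dcc in this comparison therefore depend on the probe set. Without the p75-sorted mutant array Unc5c lay at 0.27, with adjusted p = 0.358 by limma. The Gapdh ratio given above also differed between these arrays, and its part was not tested.

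**Figure D4:**
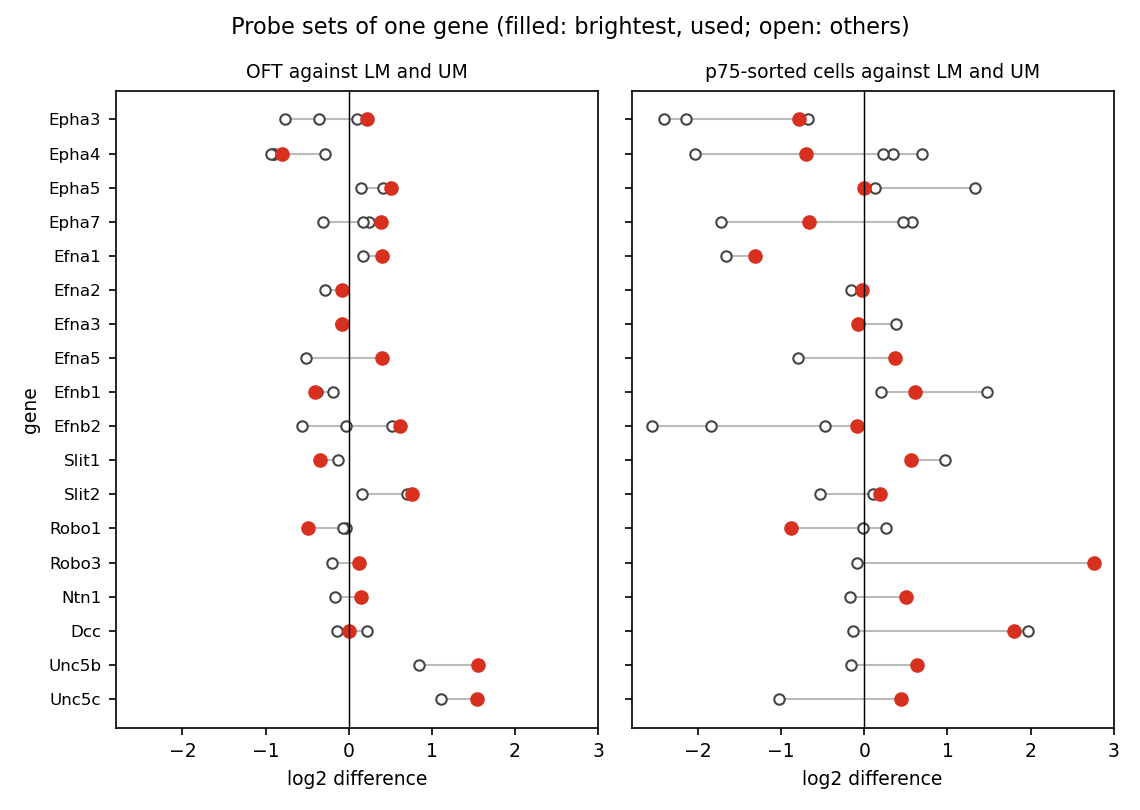
Log2 difference of every probe set above the cutoff for the 18 genes with several such probe sets, in OFT (left) and in p75-sorted cells (right) against LM with UM; each row is a gene, the filled point is the brightest probe set and open points are the others. Probe sets of Epha4, Epha7, Unc5c and Efnb2 lie further apart on the right, from -2.04 to 0.69 for Epha4 and from -2.55 to -0.09 for Efnb2.

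Against OFT, 4 of the 5 genes that were higher in OFT than in LM and UM were lower in p75-sorted cells, and Slit3 was not called. The 2 comparisons share the OFT arrays on which these genes were high, which favours a lower value here. The 4 of 5 are therefore a description, and the share among all genes higher in OFT was not counted. Unc5c differed by -1.10 ± 0.18, Unc5b by -0.93 ± 0.20, Efnb2 by -0.71 ± 0.22 and Slit2 by -0.58 ± 0.20, with adjusted p from 0.00076 to 0.041 by limma. Ephb4 was also lower, at -0.95 ± 0.25, with 98.5 and 151 against 346 and 205. Without the OFT control array the differences of Ephb4, Efnb2 and Slit2 were -0.45, -0.45 and -0.28, and none passed. Without the OFT mutant those of Ephb4 and Slit2 were -1.46 and -0.87, and without the p75-sorted control that of Efnb2 was -0.41 and not called. Epha3 and Epha7 differed by -1.01 ± 0.18 and -1.06 ± 0.30, Epha7 with 400 and 293 against 648 and 861. The probe sets of Epha3 were all lower, from -2.05 to -0.79. Those of Epha7 ran from -1.42 to 0.33, so its direction depends on the probe set here too. Efnb1 was 1.01 ± 0.23 higher, with 183 and 99.0 in OFT. Cardiomyocyte markers were lower for 8 of 8 and endothelium markers for 10 of 10 in this comparison, and their part was not tested. The comparisons with OFT and with LM and UM share the p75-sorted arrays, so their calls are not independent.

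Mutant against control asked whether guidance transcripts change in FAK mutant embryos across the 4 origins. None of the 36 genes passed by limma, and 0% of all 13545 genes did. At an unadjusted p under 0.05 there was 1 gene, Efna4, which is 2.78% of the 36, against 3.03% of all genes. The differences lay between -0.27 and 0.34, with 20 genes above 0 and 16 below, and a median of 0.01. The 95% intervals of single genes, not adjusted for the number of genes, had their lowest end at -0.58 and their highest at 0.61. The first belonged to Dcc, with an interval from -0.58 to 0.03. The second belonged to Efna4, from 0.06 to 0.61, which left out 0. The moderated SE ran from 0.12 for Efna2 to 0.21 for Robo1, and the 4 pairs limit the precision.

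Efna4 had 59.9 and 89.1 in p75-sorted cells, 251 and 317 in LM, 214 and 237 in OFT, and 256 and 380 in UM. The mutant was brighter in 4 of 4 pairs, by 0.34 ± 0.13 (unadjusted p = 0.021, adjusted p = 1.0 by limma). Efna2 was dimmer in the mutant in 4 of 4 pairs, by differences from -0.34 to -0.16, with 323 and 270 in p75-sorted cells, 353 and 284 in LM, 323 and 248 in OFT and 305 and 270 in UM. Epha8 and Ntn4 also had 1 sign in every pair, at 0.27 ± 0.13 and -0.20 ± 0.13. In all, 4 of the 36 genes (11.1%) had the same sign in all 4 pairs, against 9.18% of all genes. Dcc was lower in the mutant in p75-sorted cells, OFT and UM, with differences down to -0.69, and differed by 0.02 in LM. The 10 neuron markers were also all below 0 in this comparison, with a median of -0.35 and none called, and their part was not tested.

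**Figure D5:**
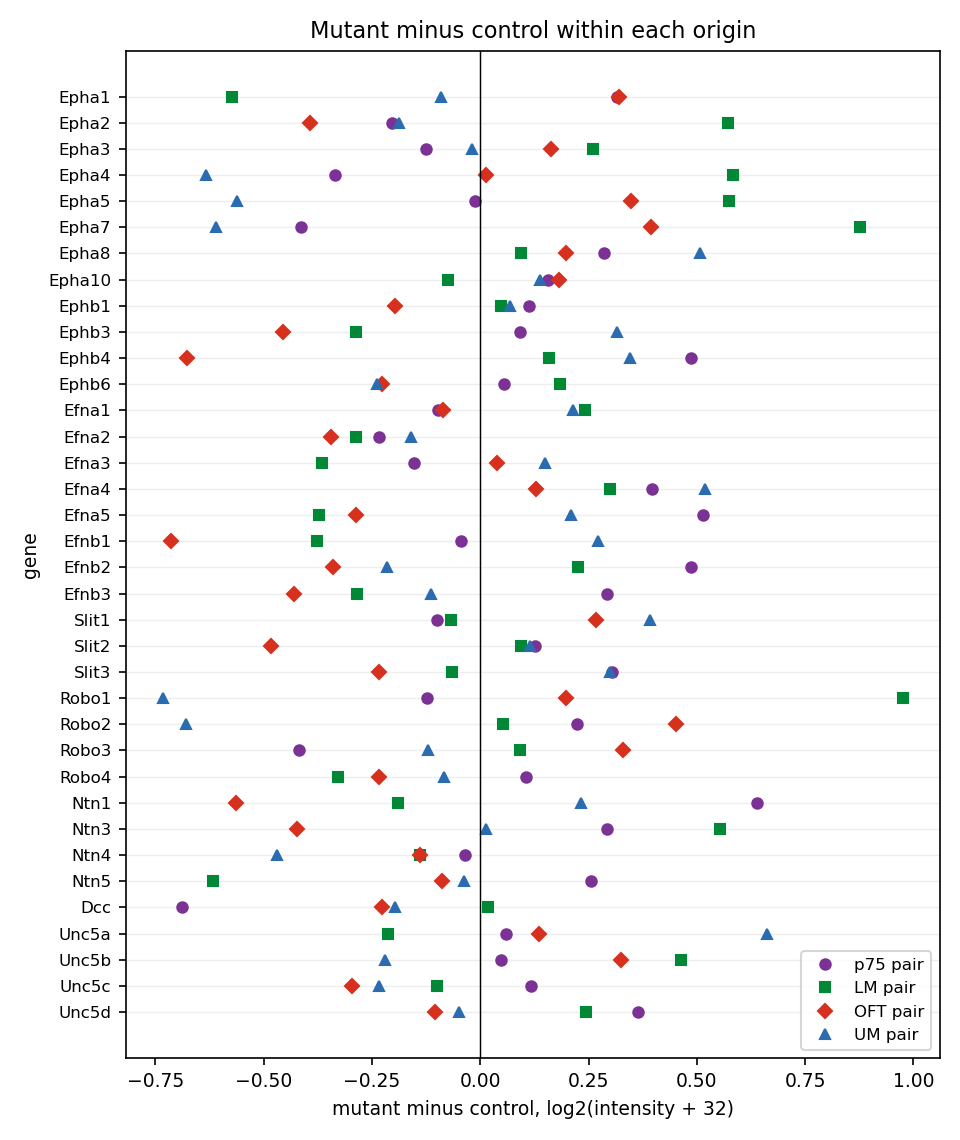
Mutant minus control on the log2(intensity + 32) scale within each origin for the 36 tested genes; each row is a gene and each symbol is 1 pair of arrays, with no replicate behind it. Robo1, Epha7, Epha4 and Epha5 lie to the right in LM and to the left in UM, and Efna4 lies to the right in all 4 pairs.

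Within single origins there is 1 array a genotype, so differences are described without a test. Robo1 and Epha7 had the largest, in LM, and the opposite sign in UM. Robo1 had 625 in the LM control and 1260 in the LM mutant, but 1348 in the UM control and 798 in the UM mutant, with differences of 0.98 and -0.73. Epha7 had 374 and 713 in LM and 768 and 492 in UM, with 0.88 and -0.61. Epha4 had 448 and 688 in LM and 701 and 440 in UM, with 0.58 and -0.63. In each of the 3 the LM mutant resembled the UM control, and the LM control lay nearer to the UM mutant. Most other probe sets of these genes did not show this. Those of Robo1 gave -0.17 and -0.15 in LM and 0.01 and 0.24 in UM. Those of Epha7 gave 0.48, -0.09 and -0.25 in LM and -0.21, 0.11 and 0.00 in UM. Of the 4 others of Epha4, 1 gave 0.42 in LM and -0.42 in UM, and the rest gave -0.18 to 0.10 in LM and -0.47 to -0.00 in UM. Opposite differences of at least 1.5-fold in both pairs were shown by 2 of the 36 genes (5.56%), Robo1 and Epha7, against 1.06% of all genes. The fold was taken on the log2 scale with the pseudocount added, so it is smaller than the ratio of the intensities shown. On that scale Epha4, with 0.58 in LM, lay just below 1.5-fold, although its intensities, 448 and 688, are more than 1.5-fold apart.

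Over the 36 genes the LM and UM differences correlated at r = -0.47 (Spearman -0.37), and over all 13545 genes at -0.34 (Spearman -0.33); genes of 1 array are not independent replicates. Over the levels of the 36 genes the LM mutant array correlated at 0.974 with the UM control and 0.971 with the LM control, but the UM control correlated most with the UM mutant, at 0.976, and the LM control most with the LM mutant. Neuron markers summed to 673 in the LM control and 1218 in its mutant, and to 2076 and 1147 in UM, which runs the same way as Robo1 and Epha7. Their part was not tested. The 1.5-fold measure again has the pseudocount added, so a gene past that fold by intensity alone can be left out. Ntn1 in OFT, at 123 and 72.8, is such a gene. By this measure 2 genes differed in the p75-sorted pair, 3 in LM, 2 in OFT and 5 in UM. These are 5.56%, 8.33%, 5.56% and 13.9% of the 36, against 5.86%, 8.08%, 3.93% and 4.64% of all genes. In OFT those were Efnb1 (183 and 99.0) and Ephb4 (346 and 205), both lower in the mutant, where 2.55% of all genes were. In UM 4 of the 5 were lower in the mutant, Robo1, Robo2, Epha4 and Epha7, and Unc5a, dim at 2.18 and 22.1, was higher; of all genes 2.13% were lower by that fold. In p75-sorted cells Ntn1 was higher in the mutant, at 98 and 170, and Dcc lower.

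The signalling partners of these families were counted as a list of 71 genes, of which 69 had a probe set and 67 were tested. In OFT against LM and UM 4 were higher and 0 lower, or 5.97% and 0% against 11.3% and 3.88% of all genes, with a median of 0.16. They were Ntng1, a lipid-anchored netrin relative, at 1.11 ± 0.18, Dag1, the dystroglycan that binds Slit, at 0.87 ± 0.15, Rgs3, which binds ephrin-B, at 0.74 ± 0.16, and Kalrn, a Rac exchange factor, at 0.60 ± 0.17. In p75-sorted cells against LM and UM 33 were higher and 7 lower, or 49.3% and 10.4% against 29.4% and 18.7% of all genes, with a median of 0.43 against 0.09 over all genes. Dag1 had 1154 and 1110 in p75-sorted cells and 241 to 319 in LM and UM, a difference of 1.93 ± 0.15. Srgap3, a GTPase-activating protein bound by Robo, differed by 1.86 ± 0.16 and Itsn1, a Cdc42 exchange factor that works with Ephb receptors, by 1.68 ± 0.20. Rhoa, the small GTPase downstream of repulsive guidance, was lower, at -1.66 ± 0.25. Against OFT 19 were higher and 6 lower, or 28.4% and 8.96% against 19.2% and 15.4% of all genes, led by Itsn1, Srgap3, Rhoa and Abl1, a tyrosine kinase, at 1.68, 1.57, -1.51 and 1.21. Neither LM against UM nor mutant against control called any of the 67 by limma. Each partner was read from its brightest probe set, and its other probe sets were not compared gene by gene. Among all genes called in p75-sorted cells against LM and UM, 66.9% of other probe sets had the same sign. The part of the Gapdh ratio, 2.82 and 4.91 in p75-sorted cells, in the partner levels was not tested. Without the OFT control array none of the 4 in OFT were called. The p75-sorted count of 40 against LM and UM was 20 without the p75-sorted mutant array, and that of 25 against OFT was 10 without it and 9 without the OFT mutant.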

How the data were processed

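The authors deposited linear intensities, 1 for each of 45101 Affymetrix probe sets on 8 arrays; how they were computed is not stated in the labels. The mean without the lowest and highest 2% of values was 150.001 on every array, a common scale that the deposited intensities already had, and none was scaled again. Gene names came from the platform's annotation: 34945 had 1 gene, 932 had several and were left out, and 9211 were not listed. Genes were read from their brightest probe set over the 8 arrays and log2(intensity + 32) was tested with limma 3.58.1 in R 4.3.3 (lmFit, eBayes), with 3 residual and 9.06 prior degrees of freedom and a threshold of 0.05. Control and mutant arrays were paired by the origin label. Deviations from the genotype means correlated at 0.618 to 0.878 within origins. These deviations hold the differences between origins, so they cannot show that a pair was matched beyond its origin. The fit was tested on simulated data. Genes named were those called between origins, the 5 with the smallest p between genotypes and the brightest of each family, with others by range, and for the partner list up to 4 called genes a contrast. The genes and lists were chosen with earlier results of these data known. Cell type markers, other than Ngfr and Sox10, were given as counts and sums. Alternatives covered the pseudocount, the filter, the probe set, normalization, the variance trend, the model terms and each array left out.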

Additional observations from a re-analysis of the deposited data

Results flagged for a closer look

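Of the 36 genes, 2 had 1 pair whose mutant minus control difference stood far from the other 3, a gap that chance gives in about 1 of 20 such groups. A count of 2 among 36 is near that rate. Slit2 differed by -0.48 in OFT and by 0.09 to 0.13 in the other pairs; in OFT its other 2 probe sets gave -0.37 and 0.03. Epha10 differed by -0.075 in LM and by 0.14 to 0.18 in the other pairs, and it was dim on all arrays outside the p75-sorted pair.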

How the results depend on the processing

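The 8 arrays, 1 per origin and genotype, limit the precision, and no signal-to-background measure beyond the filter was used. Counts of called genes moved as follows. In OFT against LM and UM 6 genes became 3 at a pseudocount of 1 (partner list 4 to 2), and 3 to 8 with single arrays left out (partner list 0 to 4). In LM against UM the single call became 0 without a filter on dim genes, with probe sets averaged per gene, with quantile normalization, without the p75-sorted pair and where all probe sets had to share a sign. It became 2 with the filter at 4 arrays and with the intensity trend, and was 0 to 1 with single arrays left out. The partner list there went from 0 to 1 at a pseudocount of 100, with the filter at 4 arrays, the mean of probe sets, the intensity trend and with no replicate block (no genotype term). In p75-sorted cells against LM and UM 19 became 12 at a pseudocount of 1 and 12 where all probe sets shared a sign, an alternative chosen after seeing the data, and 10 to 21 with single arrays left out (partner list 20 to 39). Against OFT 18 became 10 to 20 and the partner list 25 became 9 to 27, and 13 at a pseudocount of 1. Unc5c in p75-sorted cells against LM and UM reversed to -0.30 (adjusted p = 0.049 by limma) with the mean of its probe sets, as its other probe set lay at -1.03. Mutant against control called 0 of the 36 genes and 0 partners in every alternative run, with no replicate block (no origin term) among them; over all genes it called 1 without the LM control array and 1 without the LM mutant array. Under all alternatives run 3 genes kept their call in OFT against LM and UM, 0 in LM against UM, 9 in p75-sorted cells against LM and UM and 8 against OFT. Robo3, Epha10 and Epha8 are among the 9, and Robo3 and Epha10 are among the 8. These genes would not have passed the filter on dim genes without the p75-sorted arrays. Other than for Unc5c, the cause of the moved counts was not tested.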
